A study of Mus musculus with 4 samples.

Results

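Contractile smooth muscle cells form the wall of arteries and arterioles, and in the long-bone libraries described here they were picked by *Myh11*, the smooth muscle myosin heavy chain, and *Acta2*, the smooth muscle α-actin. A barcode was a member if it held at least 1000 UMIs (counted RNA molecules), at least 800 detected features, under 15% mitochondrial and under 5% hemoglobin UMIs, at least 3 UMIs of *Myh11*, at least 20 UMIs of *Acta2* per 10000 UMIs, and none of *Cdh5* (endothelium) or *Ptprc* (leukocytes). The gate took 828 of the 24739 barcodes that passed the cell filter. They were compared between genotypes, and with 734 barcodes that held at least 5 UMIs of the pericyte gene *Rgs5* and failed the gate, named *Rgs5* barcodes below.

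The study asked how loss of the Hippo kinase LATS2 in endothelial cells (ECs) affects bone and its vessels. The 4 scRNA-seq libraries came from cells of the femoral and tibial metaphysis of C57/BL6 mice of both sexes aged 12 weeks, 2 from Lats2iECKO mutants and 2 from controls. Mutants carried loxP-flanked *Lats2* alleles and the *Cdh5*(PAC)-CreERT2 transgene, which the *Cdh5* promoter drives in ECs, so that the myosin-rich cells were not the target of the deletion. Controls were Cre-negative littermates; the labels call them untreated, whereas the methods of the study state that Cre-negative littermates received the same tamoxifen as mutants. Hematopoietic cells had been depleted after collagenase digestion. The labels do not say how many animals went into a library, so spread between libraries may be technical in part, and the smallest p that permuting 2 and 2 libraries can yield is 0.333.

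Smooth muscle cells contract when calcium, through calmodulin, activates the myosin light chain kinase MYLK, and relax when myosin phosphatase or the nitric oxide and cGMP pathway act against it. Their genes of filaments and contraction are known targets of serum response factor (SRF) with the coactivator myocardin, through a DNA element called the CArG box. Pericytes of capillaries share PDGFRB, NOTCH3 and RGS5 with them but hold little of the contractile apparatus.

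The libraries held 69636600 and 78953446 UMIs (mutant) and 83453507 and 85899079 UMIs (control), and the summed members 1265741, 1343005, 1381404 and 1604773 UMIs in the same order, which is kept for all lists of 4 values below. A median member held 6482, 6832, 5681 and 5853 UMIs, and 8.90%, 9.83%, 9.09% and 9.25% of them were mitochondrial. Members thus were somewhat deeper in mutants and alike in mitochondrial share. No member barcode occurred in 2 libraries. *Lats2* stood at 51.4 and 58.1 CPM (the count scaled to the total of the summed members) in mutants and at 66.6 and 64.2 CPM in controls, a log2 fold change of −0.25 (SE 0.163, adjusted p = 0.31, quasi-likelihood test of edgeR, Benjamini-Hochberg adjusted, as for all adjusted p below). The *Cre-ERT2* transcript had no count in members of any library, which allows up to 2.37 and 2.23 CPM in the mutant sums, while *Rgs5* barcodes held 3.05 and 5.24 CPM in mutants and 0 in controls. The gate barred *Cdh5*, whose promoter drives the transgene, from members but not from *Rgs5* barcodes. Of the latter, 15 and 28 in mutants held *Cdh5*, so nothing is concluded from this contrast.

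The label was checked against markers of smooth muscle and of other cells. The genes used by the gate are described only. *Myh11* (ENSMUSG00000018830, chromosome 16 of GRCm39, 14012399 to 14109236) stood at 2884, 3311, 3981 and 4024 CPM in members, against 99.4, 96.4, 496 and 592 CPM in *Rgs5* barcodes. *Acta2* stood at 10920, 10818, 12031 and 12183 CPM. Of the markers that the gate did not use, *Tagln* (transgelin, an actin-binding protein) reached 7903, 7742, 7522 and 7934 CPM in members and 364 to 873 CPM in *Rgs5* barcodes. *Pln*, phospholamban, an inhibitor of the calcium pump of the sarcoplasmic reticulum, was at 600, 557, 443 and 419 CPM in members and at most 13.1 CPM in *Rgs5* barcodes. *Lmod1*, a leiomodin that nucleates actin filaments, and *Dgkb*, a diacylglycerol kinase, lay at 652 to 867 and 1170 to 1582 CPM. The 4 markers that the gate did not use were thus present in members of every library.

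Markers of other cells were low or depended on genotype. The summed level of 8 endothelial markers was 11.1 to 17.1 CPM, with *Cdh5* at 0 by the gate. The 7 leukocyte markers summed to 5.53 to 13.4 CPM, with *Tyrobp* at 0 in every library, and Schwann cell markers to at most 4.36 CPM with *Sox10* and *Cdh19* at 0. The 6 chondrocyte markers summed to 1171 and 1383 CPM in mutants and 2214 and 3209 CPM in controls, the 6 osteoblast markers to 149 and 187 against 1830 and 838 CPM, and the 6 reticular stroma markers to 373 and 501 against 1024 and 1941 CPM. In the free RNA of the same libraries (barcodes of 10 to under 100 UMIs), the osteoblast sum was 13647 and 10448 CPM in mutants and 27274 and 28256 CPM in controls. An estimate from marker genes of cartilage, bone and red cells put 2.84% and 3.37% of the members' UMIs in mutants and 8.55% and 8.83% in controls down to free RNA. From cartilage markers alone it was 9.39%, 9.96%, 18.1% and 25.4%, and from bone markers 1.09%, 1.79%, 6.71% and 2.97%. From red cell genes it was 1.52%, 1.72%, 2.15% and 5.02%. The pooled value is thus uncertain, as is the subtraction of free RNA below, which used it.

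A gate is a range and not a type, and cells lay close to its edges. With 3 UMIs of *Myh11* there were 13, 5, 3 and 1 members, and with 2 UMIs 12, 10, 2 and 1 barcodes that met the other conditions. The barcodes just inside held *Tagln* at 5672, 5853, 1909 and 1759 CPM, and those just outside at 4106, 3259, 2360 and 1767 CPM. At the *Acta2* edge, 12, 8, 8 and 8 members held 20 to under 30 UMIs per 10000, and 8, 11, 10 and 14 barcodes 10 to under 20. These members held *Tagln* at 2849, 2034, 1833 and 1462 CPM, and the barcodes outside at 975, 920, 1036 and 1234 CPM. Cells thus lay close on both sides of either edge, with *Tagln* lower outside the *Acta2* edge in every library. At the *Myh11* edge more members lay low in mutants: 33.9% and 28.2% of mutant members held under 10 UMIs of *Myh11*, against 9.91% and 13.5% of control members. Barcodes with *Acta2* past the gate but *Myh11* under it numbered 46 and 48 in mutants and 4 and 9 in controls. Since *Myh11* and *Acta2* chose the members, these values carry no test.

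The share of members overlapped between genotypes in the gate used, but depended on where the gate was set. Members made up 3.39% (95% exact Clopper-Pearson interval 2.91 to 3.92, 174 barcodes) and 3.19% (2.75 to 3.67, 188) of the barcodes of mutants, and 3.23% (2.83 to 3.68, 222) and 3.57% (3.14 to 4.03, 244) of those of controls. The intervals cover counting error only. The mean was 3.29% ± 0.143 (SD, n = 2) in mutants and 3.40% ± 0.237 (SD, n = 2) in controls, a ratio of 0.967 (2-sided exact permutation test, p = 0.667). With 2 libraries a group this test cannot go below 0.333, so it could not have found a difference. With at least 10 UMIs of *Myh11* the shares were 2.24% and 2.29% in mutants and 2.91% and 3.09% in controls, a ratio of 0.755, and in the stricter gate 2.65% and 2.59% against 2.85% and 3.23%, a ratio of 0.862, with no overlap in either. Members with at least 5 UMIs of cartilage and bone markers were 19.0% and 22.9% of members in mutants and 40.5% and 40.6% in controls. Without them the shares were 2.75% and 2.46% in mutants and 1.92% and 2.12% in controls. The ratio was then 1.29, the other way and again with no overlap. Leaving out control replicate 2 turned the ratio of the gate used to 1.02.

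*Rgs5* barcodes behaved otherwise. They numbered 255 and 306 in mutants and 92 and 81 in controls, that is 5.08% ± 0.155 against 1.26% ± 0.110 of barcodes (SD, n = 2), a share 4.02 times as high in mutants. There were 0.682 and 0.614 members per *Rgs5* barcode in mutants and 2.41 and 3.01 in controls. The 2 genotypes did not overlap, with p = 0.333 in the 2-sided exact permutation test, the lower limit in this design. The make-up of the *Rgs5* barcodes differed too: 51.1% and 49.4% of those in controls held 3 or more UMIs of *Myh11*, but 9.80% and 7.52% of those in mutants, and their median *Myh11* count was 0, 0, 3 and 2.

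**Figure D1:**
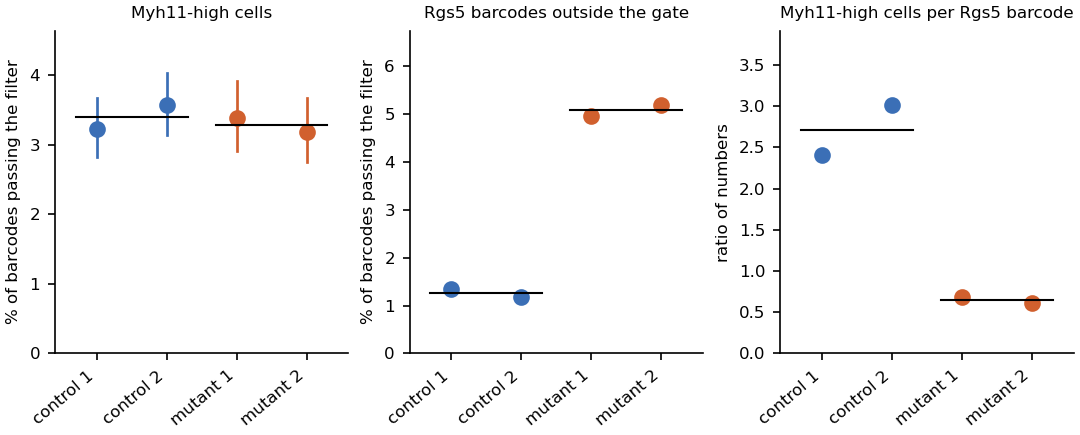
Share of *Myh11*-high cells (left) and of *Rgs5* barcodes outside the gate (middle) among barcodes that passed the cell filter, in percent, and the number of *Myh11*-high cells per *Rgs5* barcode (right), with a point for each library (blue, control; orange, mutant), black lines at the group means and, on the left, 95% exact binomial intervals. *Myh11*-high cells lay between 3.19% and 3.57% in all libraries, whereas *Rgs5* barcodes lay at 4.97% and 5.19% in mutants and at 1.34% and 1.18% in controls.

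Members and *Rgs5* barcodes were both cut from these genes, so the levels that set them apart are a description. Of 3265 genes with a mean of 50 CPM or more in members, 206 were at least 2 times as high there as in *Rgs5* barcodes in all 4 libraries, and 18 at least 10 times. The counts leave out 1 gene without a ratio, at 0 in a library of *Rgs5* barcodes. Ranked by the smallest of the 4 ratios, the first was *Cnn1*, calponin, an actin-binding inhibitor of myosin ATPase activity, at 198, 214, 226 and 249 CPM in members and 0.872, 0.983, 5.07 and 3.35 CPM in *Rgs5* barcodes. Next came *Pln*, then *Grip2*, a scaffold protein, whose ratios were 33.4 to 63.6, and *Asb2*, a subunit of a ubiquitin ligase that acts on filamins. *Ryr2*, the calcium release channel of the sarcoplasmic reticulum, was at 159, 155, 272 and 260 CPM against 4.36, 5.57, 10.1 and 20.1 CPM. The others that the naming rule picked were *Pgm5*, *Cpxm2*, *Perp*, *Fbxl22*, *Timp4*, *Xirp1* and *Adcy5*, with smallest ratios from 12.6 to 20.2. Several of these genes encode parts of the contractile and calcium release apparatus.

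In the other direction 315 of 3713 genes were at least 2 times as high in *Rgs5* barcodes in all libraries, and 19 at least 10 times. A further 16 of the 3713 were at 0 in a library of members, had no ratio and were left out of these counts and of the names. *Ptprb*, the receptor phosphatase VE-PTP of ECs, was at 87.6, 152, 287 and 151 CPM in *Rgs5* barcodes and 0.790 to 4.34 CPM in members. *Clic5*, *Ly6a*, *Pecam1*, *Sema3e*, *Sema3c*, *Ly6c1*, *Plvap*, *Dach1* and *Tmem273* were also among these, besides *Hsd11b1*, which activates glucocorticoids, and *Prg4*, lubricin. Several of them are EC genes, and 15, 28, 10 and 6 of the *Rgs5* barcodes held *Cdh5*, which the gate barred from members alone. *Rgs5* barcodes were therefore also taken without *Cdh5* and *Ptprc* as an alternative in the tests below.

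**Figure D2:**
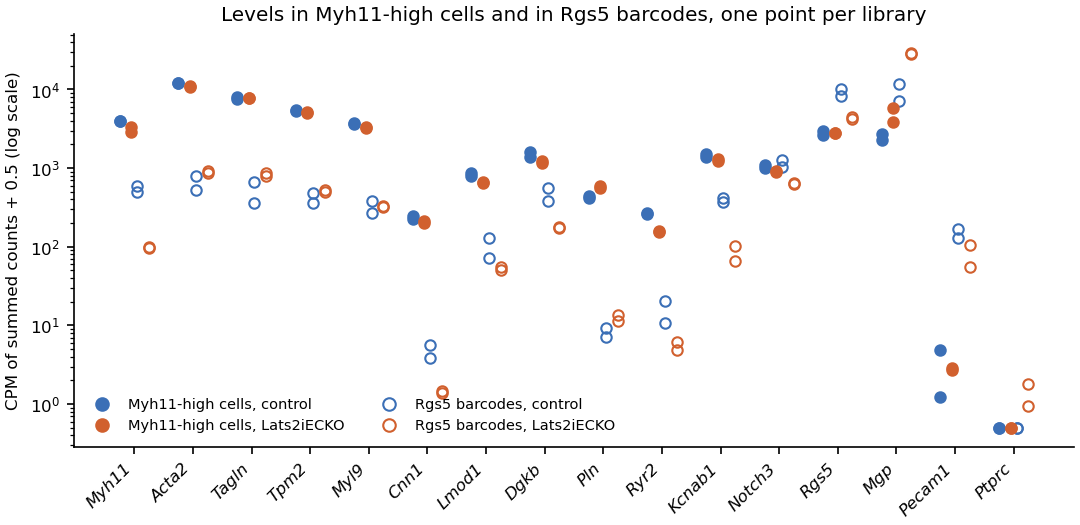
Levels of 16 genes in summed *Myh11*-high cells (filled) and *Rgs5* barcodes (open), as CPM plus 0.5 on a log axis, with a point for each of the 2 control (blue) and 2 mutant (orange) libraries. Genes of contraction on the left were higher in *Myh11*-high cells of every library, *Rgs5* and *Mgp* were higher in *Rgs5* barcodes of every library, and *Pecam1* and *Ptprc* were at most 4.36 CPM in *Myh11*-high cells.

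Members varied among themselves in the pericyte gene *Rgs5*, which the gate did not use. It was at 2831, 2802, 2944 and 2650 CPM in their sums and had no effect of genotype past the threshold (log2 fold change 0.02, SE 0.0721, adjusted p = 0.898), although among members with at least 10 UMIs of *Myh11* the value was −0.28, past the threshold. Per cell, 39.1%, 41.5%, 43.7% and 38.1% of members held no UMI of *Rgs5*, and 46.6%, 42.0%, 35.1% and 35.7% held at least 5. Chondrocytes (barcodes with at least 5 UMIs of *Acan*, none of *Myh11* and under 5 of *Rgs5*), which should lack the gene, held a UMI of *Rgs5* in 0.306%, 0.335%, 0.339% and 0.456% after thinning to 2000 UMIs a barcode, and in 3.29%, 3.80%, 1.89% and 2.66% before it. Members held one in 52.7%, 51.4%, 47.7% and 50% after thinning and in 60.9%, 58.5%, 56.3% and 61.9% before it, above this background in every library. As that background was cut on *Rgs5* itself, which lowers it, the comparison is a description only. On the counts rounded for each gene and cell, as used for thinning, the median depth was 5647 to 6790 UMIs in these members and 12711 to 14241 in chondrocytes. Thinning left out 4 or 5 members and 5 to 13 chondrocytes a library that were shallower.

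The 89, 87, 91 and 106 members with at least 5 UMIs of *Rgs5* per 10000 differed from the 68, 78, 97 and 93 without *Rgs5* in many genes of the lists. As the split was made on these cells, its values carry no test. *Steap4*, a metalloreductase of pericytes, was at 270, 310, 249 and 229 CPM in *Rgs5*-rich members and at 14.7, 10.0, 31.2 and 26.2 CPM in those without. *Abcc9*, a subunit of the KATP channel of mural cells, was at 127, 118, 132 and 112 against 25.7, 16.7, 34.3 and 26.2 CPM, and *Pdgfrb* at 458, 463, 479 and 499 against 210, 192, 212 and 214 CPM. On the other side stood *Cnn1* with 37.4, 65.1, 94.3 and 72.0 CPM in *Rgs5*-rich members and 384, 322, 338 and 419 CPM in those without, and *Kcnma1*, the BK potassium channel, with 20.4, 100, 110 and 96.0 against 458, 359, 591 and 433 CPM. *Tagln* was at 5335, 5419, 5477 and 5895 CPM against 10741, 9385, 9421 and 10003 CPM. The cartilage gene *Col2a1* was likewise higher without *Rgs5*, at 1210, 1468, 1089 and 2096 CPM against 187, 143, 144 and 200 CPM, and its part in the other differences was not tested. Of all 325 genes listed, 83 were higher in *Rgs5*-rich members in all libraries and 74 lower. Over whole lists, 7 of 9 pericyte markers other than *Rgs5* were higher in *Rgs5*-rich members in all libraries and none lower, and 1 of 20 filament genes was higher and 17 lower. Of 16 contraction enzymes 4 were higher and 6 lower, and of 18 calcium genes 4 and 5, not far from the shares among all genes listed. Among the calcium genes, *Casq2* was at 121, 134, 86.2 and 104 CPM in *Rgs5*-rich members and 51.5, 56.7, 40.5 and 40.1 CPM in those without. The pericyte marker *Cspg4* was not higher in *Rgs5*-rich members of every library.

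The RNA of members differed between the genotypes, although the deletion was aimed at ECs. Of 4669 genes tested on sums per library, 83 rose (1.78%) and 43 fell (0.921%) by at least 2-fold at an adjusted p of at most 0.05. At an adjusted p of at most 0.05 alone, 434 rose (9.30%) and 469 fell (10.0%), 19.3% in all. The median log2 fold change of all genes was 0.001. In *Rgs5* barcodes 221 of 6149 genes rose and 222 fell by at least 2-fold (3.59% and 3.61%).

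The genes with the largest rise were led by *Adamts4*, a protease of the proteoglycans aggrecan and versican (ENSMUSG00000006403, chromosome 1, 171077986 to 171089841). It stood at 305 and 485 CPM in members of mutants and at 25.3 and 42.4 CPM in those of controls, a log2 fold change of 3.53 (SE 0.215, adjusted p = 2.67e-09). *Cebpb*, a transcription factor of acute-phase and inflammatory responses (chromosome 2, 167530835 to 167532338), stood at 857 and 1019 CPM against 146 and 125 CPM, a log2 fold change of 2.80 (SE 0.112, adjusted p = 2.72e-11). Both libraries of mutants lay far above both controls for either gene, though the naming rule took only genes without overlap.

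The other 10 genes picked for their rise were *Csrnp1*, *Txndc11*, *Gadd45b*, *Pde10a*, *Adamts9*, *Ddit4*, *Irf1*, *Col10a1*, *Pim3* and *Nfkbia*, with log2 fold changes from 2.07 to 2.52. *Adamts9*, a further protease of versican, rose from 55.0 and 56.7 CPM to 266 and 267 CPM. *Nfkbia*, the inhibitor IκBα and itself a target of NF-κB, rose from 109 and 141 CPM to 495 and 557 CPM, and *Irf1*, an interferon regulatory factor, from 39.1 and 32.4 to 160 and 167 CPM. *Gadd45b*, a stress response gene, rose from 127 and 166 to 744 and 774 CPM. *Col10a1*, the collagen of hypertrophic cartilage, was at 92.5 and 232 CPM against 26.8 and 46.7 CPM, but its level in free RNA was 4305 and 4194 CPM in mutants and 1668 and 1555 CPM in controls. Its log2 fold change of 2.13 was 1.3 without mutant replicate 2, and DESeq2 did not call it. Of the 83 genes that rose, 34 were higher in free RNA than in members of controls, and 72 had the same direction there. The share of all genes tested that did so was not counted, so nothing is concluded from these numbers. A copy of a ribosomal protein gene, *Rps3a3*, had the largest value of all, 225 and 179 CPM against 3.62 and 2.49 CPM (log2 fold change 6.03, SE 0.256, adjusted p = 3.4e-11). Its reads can be shared with its parent gene, and it stood at 464 and 454 against 7.38 and 8.79 CPM in all other barcodes, so it is only counted here.

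2 genes that did not pass the filter on the share of barcodes with a count are named after their values were seen. Their levels thus came from a minority of the members of each genotype. *Il6*, a cytokine, was at 79.0 and 96.8 CPM in members of mutants and 3.62 and 6.23 CPM in those of controls, and *Ednrb*, the endothelin receptor B, at 45.8 and 79.7 against 1.45 and 4.99 CPM. Neither was tested. As both were picked on these values, the lack of overlap between genotypes carries no weight.

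The genes with the largest fall were mostly those of other cells. *Ibsp*, *Bglap*, *Bglap2*, *Spp1* and *Col1a1* are genes of bone matrix. *Cxcl12*, *Apoe*, *Dcn*, *Adcy2* and *Ebf3* were all higher in the control barcodes other than members, *Rgs5* barcodes included, than in members of controls. *Ibsp*, bone sialoprotein, stood at 34.0 and 58.8 CPM in mutants and 459 and 433 CPM in controls (log2 fold change −3.25, SE 0.158, adjusted p = 1.31e-10). *Bglap*, osteocalcin, stood at 68.7 and 72.2 against 943 and 272 CPM, and its log2 fold change of −3.09 was −1.93 without control replicate 1. After thinning to 2000 UMIs, 12.4%, 7.65%, 43.6% and 36.3% of members held a UMI of *Bglap* (before it, 25.9%, 22.3%, 62.6% and 64.8%). Chondrocytes, among which hypertrophic cells were not set apart, held one in 23.9%, 20.7%, 48.1% and 49.6% (before it, 48.0%, 44.9%, 81.6% and 83.9%). The share in members was below that in every library, so no expression in members is read from it. Of the 43 genes that fell, 21 were higher in free RNA than in members of controls and 34 had the same direction there. Here too the share of all genes tested was not counted, and nothing is concluded from these 2 numbers. *Col1a1* fell on the strength of a single library: without control replicate 1 its log2 fold change was −0.14 in place of −1.54, not past the threshold, and with free RNA subtracted it was 0.10. *Spp1* (−1.49) turned to 0.74, and *Dcn* (−1.66) to −0.39 and past no threshold, without members that held cartilage or bone markers. 1 library also moved *Bglap2* (−1.50 without control replicate 1), *Col1a2* (−0.68 without it), *Dcn* and *Spp1* (−0.79 and −0.70 without control replicate 2) and *Apoe* (−2.40 without mutant replicate 2), all still past the threshold in edgeR. DESeq2 with all libraries did not call *Dcn*, *Apoe*, *Spp1*, *Col1a1* or *Col1a2*.

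*Apba1*, an adaptor of vesicle traffic, and *Pcdhga2*, a protocadherin, were lower in free RNA than in members of controls, as was *Adcy2* by a smaller margin. *Ebf3* was not past the threshold without members that held cartilage or bone markers (−0.40) or markers of other cells (−0.43). *Apba1* fell from 56.5 and 48.6 CPM to 19.0 and 14.9 CPM (log2 fold change −1.62, SE 0.223, adjusted p = 6.24e-05). *Pcdhga2* was at only 2.37 and 3.72 against 12.3 and 8.73 CPM, and its call was lost without mutant replicate 1 (−1.45) and without control replicate 1 (−1.46), and under DESeq2 (−1.77). Its exons are shared in part with neighbouring protocadherin genes, which makes its counts uncertain. It passed edgeR's filter on low counts through controls alone, and fractions of a UMI were taken as counts by the filter on cells. No fall is read from its test.

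The widest change by group was that of immediate early genes, which encode transcription factors and feedback regulators that cells switch on within minutes of a stimulus. All 17 tested of 18 rose (*Myc* did not pass the filter), 11 of them at least 2-fold, with a median log2 fold change of 1.21 against 0.001 for all genes. The background of rising genes was 9.30%. *Junb*, a subunit of AP-1, stood at 1693 and 1765 CPM in mutants and 529 and 511 CPM in controls (log2 fold change 1.74, SE 0.0789, adjusted p = 6.98e-11). *Nr4a1*, an orphan nuclear receptor, stood at 587 and 628 against 200 and 168 CPM (1.73, SE 0.104, adjusted p = 2.4e-09). *Ier3*, a regulator of cell survival, stood at 322 and 321 against 108 and 102 CPM, and *Zfp36*, tristetraprolin, which promotes the decay of cytokine mRNAs, at 573 and 578 against 208 and 198 CPM. *Klf2*, a factor known for its response to flow in endothelium, stood at 700 and 765 against 242 and 292 CPM. The smallest change was that of *Klf6*, 0.57 (SE 0.116). All 17 stayed past the threshold in all 18 alternatives. Among the alternatives, a filter on genes detected relative to depth left out no member, so it could change no call. Both libraries of mutants lay above both controls for each of the 17, but how many of all genes tested did so was not counted.

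**Figure D3:**
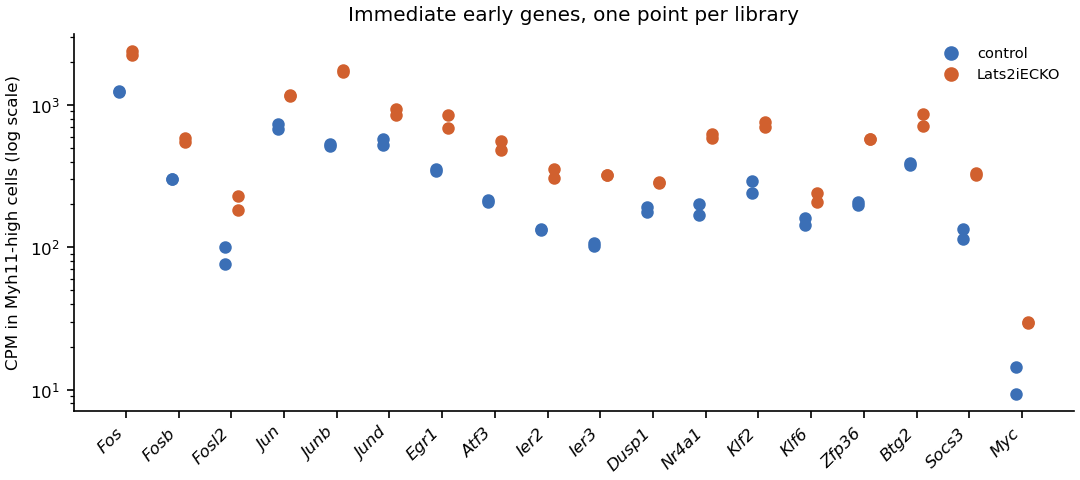
Levels of the 18 immediate early genes in summed *Myh11*-high cells as CPM on a log axis, with a point for each of the 2 control (blue) and 2 mutant (orange) libraries. For every gene both mutant libraries lay above both control libraries, and *Myc*, at 9.35 to 29.8 CPM, did not pass the filter. How many of all genes tested lay so was not counted.

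The rise of this group was not particular to members. Its summed level was 11909 and 12912 CPM in members of mutants and 5716 and 5719 CPM in those of controls. In all barcodes other than members, *Rgs5* barcodes included, it was 11482 and 10634 against 5420 and 5574 CPM, in free RNA 10455 and 10327 against 5312 and 5339 CPM, and in *Rgs5* barcodes alone 4874 and 6068 against 3824 and 3713 CPM. In *Rgs5* barcodes 9 of 17 rose and none fell (background 9.29% rising). 4 of 17 had a larger effect in members than in *Rgs5* barcodes (background 3.43%): *Klf2* by 1.43, *Nr4a1* by 0.96, *Socs3* by 0.85 and *Ier2* by 0.75 on the log2 scale. That of *Nr4a1* lost its call under DESeq2, with a mutant library left out and with *Rgs5* barcodes free of *Cdh5* and *Ptprc*. After thinning to 2000 UMIs, 63.9%, 63.9%, 60.6% and 55.0% of members held a UMI of *Fos* (before it, 77.0%, 73.4%, 71.6% and 68.0%), and 82.0%, 79.7%, 74.7% and 74.8% of chondrocytes did (before it, 92.1%, 90.4%, 86.8% and 88.1%).

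Promoters of these and of the contractile genes are shown because both groups are known to hold targets of SRF, and those of YAP1/TAZ genes because LATS2 acts on them. Windows of 250 bases before the start of transcription came from RefSeq (GRCm38.p6, unlike the GRCm39 of the gene positions), which held them for 27025 genes. They were searched on both strands for the CArG box, for the cAMP response element TGACGTCA, which reads the same on both strands, and for GGAATG, the core of TEAD sites. None of these contains another, though a CArG box and GGAATG can share their GG. The CArG box stood in 1.62% of all genes, TGACGTCA in 1.77% and GGAATG in 14.4%. Of 15 immediate early genes found in the table, *Zfp36* held a CArG box, and *Btg2* and *Dusp1* TGACGTCA. Of 17 filament genes, *Ldb3*, *Myl6*, *Myl9* and *Vcl* held a CArG box (23.5%), and GGAATG stood in 7 of the 17 filament genes (41.2%) and in 7 of 14 YAP1/TAZ target genes, among them *Ccn1*, *Amotl2* and *Crim1*. A CArG box stood in none of 13 contraction enzymes, none of 4 smooth muscle markers and 1 of 15 calcium genes. TGACGTCA stood in 2 of the 17 filament genes (11.8%) and 2 of the 15 immediate early genes (13.3%). The 5 windows below have these motifs in capitals, 5′ to 3′ on the strand of the gene: *Myl9* at chr2:156775214-156775463 (plus strand, CArG box), *Acta2* at chr19:34255374-34255623 (minus, GGAATG), *Zfp36* at chr7:28379229-28379478 (minus, CArG box), *Btg2* at chr1:134079156-134079405 (minus, TGACGTCA) and *Ccn1* at chr3:145649986-145650235 (minus, GGAATG on the other strand).
Myl9: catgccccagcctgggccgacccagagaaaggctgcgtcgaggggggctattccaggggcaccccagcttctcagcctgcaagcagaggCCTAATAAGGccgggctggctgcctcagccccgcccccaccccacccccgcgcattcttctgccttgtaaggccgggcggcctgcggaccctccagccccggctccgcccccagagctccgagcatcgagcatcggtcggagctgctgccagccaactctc
Acta2: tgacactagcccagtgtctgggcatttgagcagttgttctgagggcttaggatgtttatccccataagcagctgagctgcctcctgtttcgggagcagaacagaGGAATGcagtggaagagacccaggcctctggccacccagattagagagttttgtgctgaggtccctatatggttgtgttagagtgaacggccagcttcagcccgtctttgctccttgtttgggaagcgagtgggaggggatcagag
Zfp36: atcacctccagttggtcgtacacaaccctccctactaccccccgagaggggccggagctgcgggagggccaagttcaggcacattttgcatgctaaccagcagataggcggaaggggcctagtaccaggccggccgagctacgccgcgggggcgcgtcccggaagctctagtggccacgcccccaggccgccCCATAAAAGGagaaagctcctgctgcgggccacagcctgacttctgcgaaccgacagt
Btg2: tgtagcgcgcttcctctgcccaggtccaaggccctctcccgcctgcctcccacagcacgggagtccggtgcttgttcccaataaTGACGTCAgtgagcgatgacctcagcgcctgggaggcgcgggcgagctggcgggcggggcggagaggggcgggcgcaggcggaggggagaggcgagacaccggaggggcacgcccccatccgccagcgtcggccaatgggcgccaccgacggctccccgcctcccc
Ccn1: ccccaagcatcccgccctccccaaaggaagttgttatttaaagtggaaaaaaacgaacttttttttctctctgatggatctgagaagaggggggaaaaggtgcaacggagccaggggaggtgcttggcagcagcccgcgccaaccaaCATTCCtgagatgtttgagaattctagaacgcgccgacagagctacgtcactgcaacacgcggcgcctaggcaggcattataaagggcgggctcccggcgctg
The motif ended 151 bases before the start in *Myl9*, 140 in *Acta2*, 48 in *Zfp36*, 158 in *Btg2* and 97 in *Ccn1*. A match is a run of letters and no proof of binding, and a window without one leaves the rest of the gene unsearched. A CArG box was counted only as CC and GG around a core of A and T alone. Runs with a G or C in the core were not counted, and the *Acta2* window holds such runs (ccctatatgg and ccttgtttgg).

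The genes of the contractile apparatus moved little and mostly downwards. Of 19 filament genes and their regulators tested, 6 fell and 1 rose (background 10.0% and 9.30%), with a median log2 fold change of −0.19. Under DESeq2 2 fell and none rose. Of 7 pericyte markers tested in members, *Higd1b* and *Ndufa4l2* rose and none fell (background 9.30% and 10.0%), with a median log2 fold change of 0.10. The 10 listed summed to 4892 and 4762 CPM in mutants and 4467 and 4264 CPM in controls. Most of that gap came from *Ndufa4l2*, which is also in the list of hypoxia genes below. *Higd1b*, a mitochondrial protein, was at 182 and 169 against 95.6 and 136 CPM (0.60, SE 0.144, adjusted p = 0.00716), with its call lost under DESeq2, without control replicate 1 (0.39) and with at least 10 UMIs of *Myh11* (0.39). *Kcnj8*, a subunit of the KATP channel, did not pass the filter and was at 18.2 and 22.3 against 9.41 and 8.10 CPM, and *Steap4* was at 0.36 (adjusted p = 0.0525). Their part in the fall of contractile genes was not tested. *Synpo2*, a partner of α-actinin and filamin, fell from 650 and 623 CPM to 432 and 468 CPM (−0.49, SE 0.0883, adjusted p = 7.35e-04), and *Flna*, filamin A, from 1421 and 1480 to 1034 and 1119 CPM (−0.42, SE 0.0769, adjusted p = 8.13e-04). *Des*, desmin, the intermediate filament of muscle, rose from 198 and 204 to 263 and 254 CPM. Its call was lost without mutant replicate 1 (0.34) and without mutant replicate 2 (0.39), under DESeq2 (0.37), with free RNA subtracted (0.30), without members that held markers of other cells (0.34) or cartilage or bone markers (0.34), and under the stricter cell filter, where it was at 0.054. *Tagln*, at 0.02 (SE 0.0624, adjusted p = 0.824), did not pass the threshold. *Des*, and *Gucy1a1*, *Irag1*, *Cacna1c* and *Casq2* below, were named after their values were seen. *Ldb3* (−0.52), *Lmod1* (−0.32) and *Actn1* (−0.32) passed it, but 3 in place of 6 genes fell without mutant replicate 1 or without control replicate 1. *Lmod1* was then at −0.34 and −0.24, *Ldb3* at −0.37 without control replicate 1, and *Actn1* at −0.29 without mutant replicate 1, none past it. *Lmod1* at −0.32 and *Actn1* at −0.36 also failed without mutant replicate 2. Among members with at least 10 UMIs of *Myh11* the median of the list was 0.005 and 2 genes fell.

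Enzymes of contraction and relaxation followed the same pattern. Of 16 tested, 6 fell and 1 rose (background 10.0% and 9.30%), with a median of −0.15. Under DESeq2 4 fell and none rose, and *Dgkg*, *Gucy1a1* and *Irag1* did not pass. *Ppp1r12b*, a targeting subunit of myosin phosphatase, fell from 739 and 726 CPM to 416 and 439 CPM (−0.77, SE 0.0858, adjusted p = 6.02e-06). *Mylk*, the kinase that starts contraction, stood at 1241 and 1388 against 1789 and 1654 CPM (−0.38), and *Ppp1r12a*, the other targeting subunit, at −0.28. *Gucy1a1*, a subunit of the nitric oxide receptor, and *Irag1*, a substrate of the cGMP kinase, also fell, by 0.31 and 0.36 on the log2 scale, and *Dgkb* by 0.31. *Dgkg*, another diacylglycerol kinase, rose by 0.41. Without mutant replicate 1 only *Ppp1r12b* still fell: *Mylk* was at −0.31, *Ppp1r12a* at −0.27, *Dgkb* at −0.28, *Gucy1a1* at −0.27 and *Irag1* at −0.24. *Gucy1a1* at −0.35 failed without mutant replicate 2, and *Irag1* at −0.28 without control replicate 2. Without control replicate 1, 3 fell, with *Ppp1r12a* at −0.21, *Dgkb* at −0.21 and *Gucy1a1* at −0.20, and without mutant replicate 2 *Dgkg* was at 0.24. Among members with at least 10 UMIs of *Myh11*, 1 of the 16 fell, *Ppp1r12b*, and 2 rose, with *Mylk* at −0.24, *Ppp1r12a* at −0.15, *Dgkb* at −0.20, *Gucy1a1* at −0.17 and *Irag1* at −0.24, none past the threshold. In *Rgs5* barcodes 13 of 16 fell (background 10.6%) with a median of −0.87. Fewer *Rgs5* barcodes of mutants held 3 or more UMIs of *Myh11*, as given above, and the part of this was not tested.

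Calcium handling showed 5 genes lower and 2 higher of 16 (background 10.0% and 9.30%), and 5 and 1 under DESeq2. *Ryr2* fell from 272 and 260 CPM to 159 and 155 CPM (−0.75, SE 0.106, adjusted p = 7.16e-05). *Itpr1*, the inositol trisphosphate receptor, fell by 0.51 on the log2 scale, *Kcnma1* by 0.59, and the calcium channel subunits *Cacna1c* and *Cacnb2* by 0.42 and 0.41. *Pln* rose by 0.43 (SE 0.0895, adjusted p = 0.00241), and *Casq2*, calsequestrin of the sarcoplasmic reticulum, by 0.44 (SE 0.147, adjusted p = 0.0433), but neither passed without mutant replicate 1, where *Pln* was at 0.38, *Casq2* at 0.46 and *Cacna1c* at −0.30, or, for *Casq2*, without mutant replicate 2 (0.41) or control replicate 1 (0.35). With at least 10 UMIs of *Myh11*, 3 fell, and *Kcnma1* (−0.31) and *Cacnb2* (−0.24) did not pass.

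Of 19 receptors for vasoactive agents, 5 were tested and 2 fell (background 10.0%), and 1 fell under DESeq2. *Ednra*, the endothelin receptor A, stood at 224 in both mutants and 350 and 327 CPM in controls (−0.59, SE 0.0987, adjusted p = 4.13e-04), and *P2rx1*, the ATP-gated channel of arterial muscle, at 110 and 92.3 against 169 and 145 CPM (−0.63, SE 0.136, adjusted p = 0.00338). Among transcription factors of smooth muscle, 2 rose and 2 fell of 14, a share near that of all genes tested (9.30% and 10.0%). *Klf4*, known to repress contractile genes, rose from 110 and 113 to 284 and 309 CPM (1.42, SE 0.111, adjusted p = 6.76e-08), and *Foxs1*, a factor of mural cells, from 79.6 and 79.8 to 161 and 144 CPM (0.94, SE 0.132, adjusted p = 7.1e-05). *Ebf1* (−0.34) and *Mrtfb* (−0.46) fell, but *Mrtfb* did not pass with any library left out (−0.52 to −0.42), nor did *Ebf1* without mutant replicate 1 (−0.30).

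Many of these shifts followed the length of the gene. The deposited counts cover introns, and genes that fell had a median span of 109 kb, those that rose 13.4 kb, and all genes tested 32.4 kb. In 4 equal classes from the shortest to the longest genes, the median log2 fold change in members was 0.15, 0.08, −0.07 and −0.22. In all barcodes other than members, *Rgs5* barcodes included, it was 0.08, 0.02, −0.09 and −0.23, and in free RNA 0.09, −0.02, −0.12 and −0.22. With the trend on span removed, an alternative chosen after the data were seen, 76 genes rose and 30 fell by at least 2-fold. Of the contraction enzymes 3 then rose and 1 fell (median 0.04), and of the calcium genes 2 rose and 1 fell (median 0.04). Of the 14 transcription factors of smooth muscle 3 rose and none fell, so *Ebf1* and *Mrtfb* lost their calls. *Dgkb*, which spans 817 kb, was at 0.05 in place of −0.31. By contrast 8 filament genes fell and 2 rose (median −0.23), and all 17 immediate early genes rose (median 1.15). What set the trend was not tested.

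**Figure D4:**
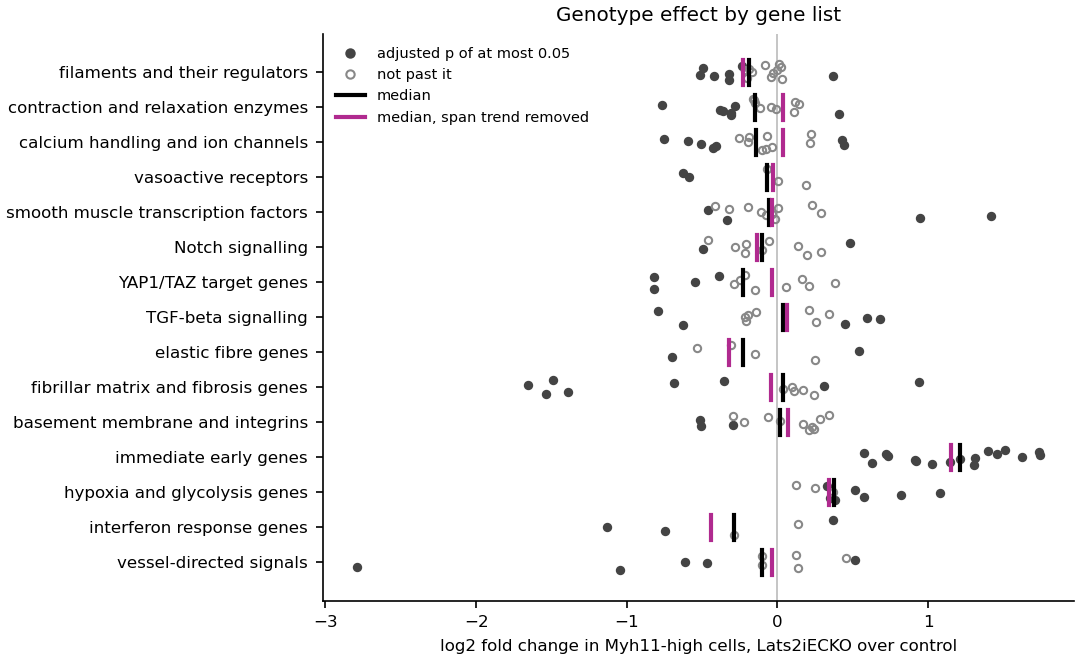
Log2 fold change of mutant over control in *Myh11*-high cells for the tested genes of each list (points; filled, adjusted p of at most 0.05), with the median of the list (black line) and its median after the trend on gene span was removed (purple line). Immediate early genes lay to the right of 0 throughout, while the medians of contraction and of calcium genes moved from −0.15 and −0.14 to 0.04.

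LATS2 is known to restrain the coactivators YAP1 and TAZ. Of 12 YAP1/TAZ target genes tested, none rose and 4 fell (background 9.30% and 10.0%), with a median of −0.23. Under DESeq2 a single one fell. 1 gene rose with no gene filter, with the replicate number as a block and with equal numbers of members. The same number rose without members that held markers of other cells, or cartilage or bone markers. With the trend on span removed the median was −0.036. *Crim1*, a membrane protein that binds growth factors, fell from 712 and 614 to 424 and 480 CPM (−0.55, SE 0.0981, adjusted p = 7.37e-04). *Amotl2*, an angiomotin, stood at −0.82, *Ptpn14* at −0.82 and *Rbms3* at −0.39. *Ptpn14* (−0.69) and *Rbms3* (−0.32) did not pass without mutant replicate 1, where 2 fell, nor *Amotl2* (−0.66) without control replicate 2, and *Rbms3* was at 0.005 with the trend on span removed. *Ccn1* and *Ccn2*, secreted targets of YAP1/TAZ, were at −0.29 (adjusted p = 0.0637) and 0.38 (adjusted p = 0.069). *Yap1* (−0.12) and *Wwtr1* (0.09) did not pass either.

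Notch genes, which hold mural cells in their state, gave 1 rise and 1 fall of 11, a share at the background of 9.30% and 10.0%, and none under DESeq2. *Nrarp*, a feedback target, rose by 0.48 on the log2 scale and *Maml2* fell by 0.49, and both calls were lost without control replicate 1 (0.44 and −0.36), that of *Nrarp* also without mutant replicate 2 (0.32), while 2 rose and 2 fell without control replicate 2. *Notch3* itself was at 900 and 913 against 1100 and 1004 CPM (−0.21, adjusted p = 0.0798). In *Rgs5* barcodes 8 of 11 fell (background 10.6%), with a median of −0.85. The part of their unlike make-up in the 2 genotypes, given above, was not tested.

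TGF-beta genes gave 3 rises and 2 falls of 12 (background 9.30% and 10.0%), and 1 of each under DESeq2. *Smad7*, a feedback inhibitor, rose from 108 and 112 to 170 and 181 CPM (0.68, SE 0.12, adjusted p = 6.24e-04), and *Ltbp1*, which stores latent TGF-beta in the matrix, fell from 335 and 363 to 237 and 214 CPM (−0.63, SE 0.101, adjusted p = 2.84e-04). *Tgfb1* rose by 0.59 and *Tgfbr3* fell by 0.79 on the log2 scale. Without mutant replicate 1, 1 rose, with *Tgfb1* at 0.57 and not past the threshold, and *Tgfbr3* was at −0.47 and not past it. *Tgfb1* also failed with any of the other libraries left out (0.53 to 0.68).

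The matrix was split. *Eln*, elastin, the elastic fibre of the arterial wall, fell from 495 and 526 to 315 and 311 CPM (−0.70, SE 0.091, adjusted p = 3.41e-05), and *Fbn1*, fibrillin, rose by 0.54, the only calls among 6 elastic fibre genes tested. *Fbn1* did not pass without mutant replicate 1 (0.57), mutant replicate 2 (0.50) or control replicate 1 (0.26), and was at −0.23 in the stricter gate, and 2 genes fell without mutant replicate 2 or control replicate 1. Of 13 fibrillar matrix genes 2 rose and 6 fell (background 9.30% and 10.0%), and under DESeq2 1 rose and 1 fell. *Mgp*, matrix Gla protein, an inhibitor of calcification of arteries, rose from 2736 and 2304 to 5742 and 3864 CPM (0.94, SE 0.126, adjusted p = 4.76e-05), although among members with at least 10 UMIs of *Myh11* it was at 0.15 and did not pass. *Col1a2* (−1.39) and *Fn1* (−0.69), like *Col1a1*, *Dcn* and *Spp1*, fell in members but are rich in free RNA. Without members that held cartilage or bone markers, 7 of these 13 genes rose and 2 fell, and with at least 10 UMIs of *Myh11* none rose and 11 fell, so the list as a whole had no stable direction. Of 13 genes of basement membrane and integrins, 3 fell and none rose (background 10.0% and 9.30%), and none fell under DESeq2: *Hspg2*, perlecan, by 0.50, *Lama4*, a laminin, by 0.51 and *Itga1*, an integrin, by 0.30 on the log2 scale. With the trend on span removed 3 of the 13 rose and none fell, so the list had no stable direction, and *Hspg2* was at −0.34, not past the threshold. A single gene fell without mutant replicate 2 or without control replicate 1, where *Lama4* was at −0.44 and −0.45 and *Itga1* at −0.32 and −0.26, none past the threshold, and *Itga1* was at −0.28 without mutant replicate 1, not past it. Without mutant replicate 2 or control replicate 2, 2 of these genes rose.

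Genes of hypoxia and glycolysis rose. Of 10 tested, 7 rose and none fell (background 9.30% and 10.0%), with a median of 0.37, and 4 rose under DESeq2. *Ndufa4l2*, a mitochondrial protein induced by HIF-1, stood at 684 and 605 CPM in mutants and 304 and 307 CPM in controls (1.08, SE 0.0937, adjusted p = 2.41e-07), *Ldha*, lactate dehydrogenase, at 250 and 238 against 131 and 146 CPM (0.82, SE 0.111, adjusted p = 5.22e-05), and *Gapdh* at 633 and 638 against 407 and 450 CPM (0.57, SE 0.0888, adjusted p = 1.82e-04). 3 rose without mutant replicate 1 and 4 without control replicate 1: *Pgk1* was then at 0.48 and 0.43, and *Aldoa*, without mutant replicate 1, at 0.32, none past the threshold. Without members that held markers of other cells 3 rose, without those that held cartilage or bone markers 4, and with free RNA subtracted 5. In *Rgs5* barcodes 12 of 13 genes rose (background 9.29%), with a median of 1.12. The difference of effect passed for 2 of 13 genes, *Eno1* (−0.89) and *Pkm* (−0.84), both lower in members (background 2.01%). The summed list stood at 5689 and 5374 against 1844 and 1907 CPM in all barcodes other than members, *Rgs5* barcodes included.

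Among signals to vessels, 1 of 10 genes rose and 4 fell (background 9.30% and 10.0%). *Angpt1*, angiopoietin 1, the ligand of TEK that mural cells supply to ECs, fell from 116 and 96.6 to 49.0 and 52.9 CPM (−1.05, SE 0.156, adjusted p = 1.27e-04). *Pdgfa* rose from 306 and 343 to 483 and 443 CPM (0.52, SE 0.0961, adjusted p = 9.75e-04), and *Ntn4*, netrin 4, fell from 452 and 386 to 262 and 282 CPM (−0.62, SE 0.103, adjusted p = 3.87e-04). *Cxcl12* stood at 94.8 and 166 against 538 and 1281 CPM (−2.79), beside 1173 and 1381 against 3249 and 3017 CPM in free RNA. Without members that held markers of other cells its fold change was −0.52, and without those that held cartilage or bone markers −0.56. *Kitl* stood at −0.47, which did not pass without mutant replicate 1 (−0.40) or control replicate 2 (−0.25). Of 5 interferon response genes tested, *Ifitm3* rose by 0.37, and *H2-K1* (−1.13) and *H2-D1* (−0.75) fell (background 9.30% and 10.0%). *Ifitm3* did not pass without mutant replicate 2 (0.31), nor *H2-D1* without control replicate 2 (−0.32), and *H2-D1* turned to 0.24 without members that held cartilage or bone markers. *H2-K1* was then at −0.19, and at −0.34 without members that held markers of other cells, past the threshold in neither.

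The effect of genotype differed between members and *Rgs5* barcodes. The difference, with the library as a block, passed an adjusted p of 0.05 for 349 of 6415 genes (5.44%), 220 of them with the higher value in members and 129 with the lower. These counts moved with the libraries, to 117 and 66 without mutant replicate 2, to 364 and 327 without control replicate 1, and to 314 and 215 without control replicate 2. Under DESeq2 they were far lower both ways, as given in the last section. The smallest p belonged to *Adamts4*, which was at 67.6 and 110 against 59.6 and 90.3 CPM in *Rgs5* barcodes (0.40, SE 0.254) and had a difference of effect of 3.21 (SE 0.234, adjusted p = 6.64e-06). *Adamts9* differed by 2.87 (SE 0.257, adjusted p = 3.39e-05) and *Arih1*, a ubiquitin ligase that rose from 191 and 204 to 491 and 687 CPM in members alone of the 2 classes, by 1.86 (SE 0.209, adjusted p = 2.37e-04).

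In the other direction *Mmp13*, collagenase 3, rose in *Rgs5* barcodes from 22.8 and 58.5 to 314 and 523 CPM and did not pass the filter in members (4.74 and 9.68 against 5.07 and 92.2 CPM). *Fat1*, an atypical cadherin, rose from 131 and 117 to 374 and 336 CPM in *Rgs5* barcodes and stood at 123 and 107 against 134 and 148 CPM in members. *Ccn1* rose there from 127 and 115 to 276 and 309 CPM and differed by −1.66 (SE 0.202, adjusted p = 2.89e-04).

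Other genes had the larger fall in *Rgs5* barcodes. *Kcnab1*, a potassium channel subunit, stood at 65.0 and 101 against 412 and 375 CPM there (−2.13, SE 0.189) and at 1216 and 1320 against 1534 and 1377 CPM in members (−0.19, SE 0.0807, adjusted p = 0.107, not past the threshold), a difference of 1.98 (SE 0.218, adjusted p = 2.37e-04). *Rgs6* differed by 1.91 and *Cacnb2* by 1.86. *Eln* stood at 21.8 and 23.3 against 140 and 283 CPM in *Rgs5* barcodes and differed by 2.36. Of 16 contraction enzymes 5 had the higher value in members and none the lower (background 3.43% and 2.01%), and of 16 calcium genes 6 and 1, but of 19 filament genes 1 had the higher and 4 the lower, among them *Actn1* (−0.78). As given above, 49.4% to 51.1% of the *Rgs5* barcodes of controls but 7.52% to 9.80% of those of mutants held 3 or more UMIs of *Myh11*, so the classes compared are not made up alike in the 2 genotypes, and the part of this in the difference was not tested. Members were not alike either: 33.9% and 28.2% of those of mutants and 9.91% and 13.5% of those of controls held under 10 UMIs of *Myh11*.

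**Figure D5:**
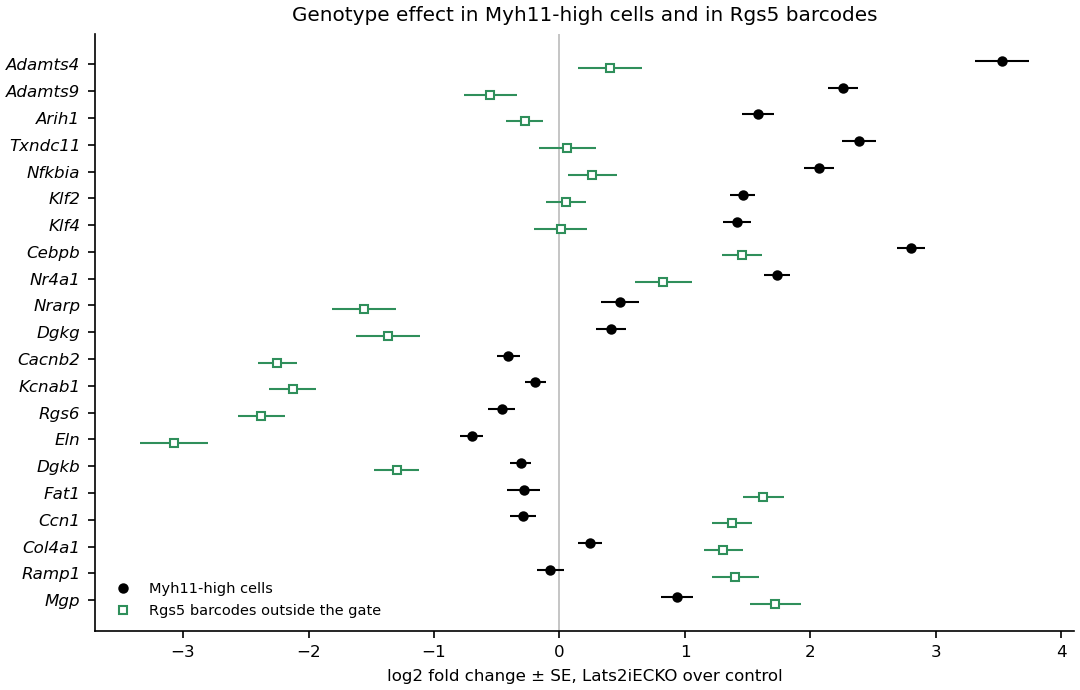
Log2 fold change of mutant over control with its SE for 21 genes in *Myh11*-high cells (black circles) and in *Rgs5* barcodes outside the gate (green squares). *Adamts4* was at 3.53 in *Myh11*-high cells and 0.40 in *Rgs5* barcodes, and *Eln* at −0.70 and −3.08. The 21 genes were picked from those that passed the test of this difference, so that each differed was fixed by the choice. Some lost the call with a library left out, as given in the closing sections.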

How the data were processed

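The 4 libraries were made with 10x Chromium V3. The authors trimmed reads with cutadapt 3.5 and counted UMIs with STARsolo 2.7.10a on mm39 with GENCODE and transgene sequences, over exons and introns, sharing reads of several genes by expectation maximisation. The matrices they deposited hold expected counts, which need not be whole. Counts were summed over the barcodes of a class in each library and rounded. Summed members gave 1265741 to 1604773 UMIs. edgeR 4.0.16 (quasi-likelihood test, Benjamini-Hochberg adjustment) tested genotype on 2 against 2 sums, after edgeR's filter on low counts and a count in at least 20% of the barcodes of either genotype. Any fraction of a UMI was taken as a count there. DESeq2 1.42.0, other gates and filters, and each library left out were alternatives. Those with at least 10 UMIs of *Myh11* or without members holding cartilage or bone markers were chosen after seeing the data. The difference of effect between members and *Rgs5* barcodes had the library as a block. Genes used by a gate were not tested in the class it set or for the difference, so *Rgs5* was tested in members alone. No doublet caller was run: 15 members held over 3 times the median UMIs. The text names the 12 genes of largest fold each way, up to 5 genes of smallest p of each list, the 8 of smallest p for the difference, and 12 each way between classes, apart from items that are not reported here. The members and lists were chosen with earlier results of these data known. p-values measure the spread between libraries. Figures were drawn with matplotlib 3.10.9.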

Additional observations from a re-analysis of the deposited data

Results flagged for a closer look

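The effect of genotype differed between *Myh11*-high cells and *Rgs5* barcodes, by a test of the difference itself with the library as a block (edgeR, adjusted p of at most 0.05), for 38 of 113 tested of the 120 genes named by the rule and reported here. Over all genes it was 349 of 6415 (5.44%), and the 38 include genes that the rule named for the smallest p of this same test, so their passing was fixed by the choice. Values are log2 differences, members minus *Rgs5* barcodes, and the part of the unlike make-up of the *Rgs5* barcodes was not tested.

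Higher in members were *Adamts4* (3.21), *Pde10a* (2.95), *Adamts9* (2.87), *Eln* (2.36), *Txndc11* (2.35), *Nrarp* (2.08), *Kcnab1* (1.98), *Rgs6* (1.91), *Arih1* (1.86), *Cacnb2* (1.86), *Nfkbia* (1.85), *Dgkg* (1.81), *Irf1* (1.77), *Klf4* (1.45), *Klf2* (1.43), *Pim3* (1.37), *Cebpb* (1.35), *Gadd45b* (1.26), *Ltbp1* (1.21), *Higd1b* (1.10), *Dgkb* (0.99) and *Nr4a1* (0.96).

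Lower in members were *Mmp13* (−5.99), *Spp1* (−4.09), *Ibsp* (−3.03), *Fat1* (−1.89), *Ccn1* (−1.66), *Comp* (−1.59), *Rgs4* (−1.51), *Ramp1* (−1.46), *Apoe* (−1.40), *Apba1* (−1.29), *Adcy2* (−1.24), *Dcn* (−1.23), *Col4a1* (−1.06), *Mgp* (−0.83), *Actn1* (−0.78) and *Itga1* (−0.76). Without mutant replicate 1 the call was lost for *Pim3* (1.15), *Dcn* (−0.996), *Apba1* (−1.45), *Apoe* (−0.67), *Dgkb* (1.02), *Actn1* (−0.73), *Mgp* (−1.06), *Itga1* (−0.78) and *Nr4a1* (0.69). Without mutant replicate 2 it was lost for *Apba1* (−1.15), *Adcy2* (−1.07), *Dgkb* (0.94), *Comp* (−1.05), *Actn1* (−0.84), *Ltbp1* (0.71), *Mgp* (−0.62), *Itga1* (−0.75) and *Col4a1* (−0.90). *Apba1* (−1.30) also lost it without control replicate 1 and *Pim3* (1.13) without control replicate 2. With *Rgs5* barcodes free of *Cdh5* and *Ptprc*, *Pim3* (0.14), *Comp* (−1.49), *Mgp* (−0.79) and *Nr4a1* (0.41) did not pass. Still past the threshold, the value of *Mmp13* was −3.78 without control replicate 2, a library whose members held it at 92.2 CPM, against at most 9.68 CPM in the others. That of *Spp1* was −2.03 without control replicate 2 and −6.22 without control replicate 1, that of *Comp* −0.93 and −2.42, and that of *Dgkb* 0.62 without control replicate 2. *Ibsp* was at −1.80 without mutant replicate 1 and *Apoe* at −2.32 without mutant replicate 2. DESeq2 did not call 11 of the 38: *Pim3*, *Nr4a1*, *Higd1b* and *Ltbp1* among the higher, and *Ibsp*, *Spp1*, *Apba1*, *Apoe*, *Comp*, *Actn1* and *Itga1* among the lower. The stricter cell filter ended 7 calls, the stricter and the looser gate 3 each, and removal of the trend on span 2.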

How the results depend on the processing

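Of the values of single genes under an alternative, 2176 kept their direction and side of the threshold, 253 lost the call, 39 gained it and 17 reversed. The 2176 include a filter on genes detected relative to depth, which left out no member and no *Rgs5* barcode. Its 112 values in members and 38 of the difference could not change. The share of members, mutant over control, was 0.755 with at least 10 UMIs of *Myh11*, 0.862 in the stricter gate, 0.872 with the stricter cell filter, 1.03 in the looser gate, 1.28 without members holding markers of other cell types, 1.29 without those holding cartilage or bone markers, and 0.922 to 1.02 with a library left out. With no gene filter 288 genes rose and 308 fell in members and 528 each way in *Rgs5* barcodes, and 68 fell in members under the stricter cell filter. For the difference of effect, DESeq2 gave 77 higher and 38 lower, no gene filter 282 lower and the stricter cell filter 81 lower, and a library left out 117 to 364 higher and 66 to 327 lower. The cause was not tested for any of these.

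List medians moved as follows. Filaments were at −0.094 in the stricter gate, −0.27 under the stricter cell filter, −0.074 with equal numbers of members, 0.0046 with *Myh11* of at least 10 UMIs and −0.29 without cartilage or bone markers. Contraction enzymes were at 0.040 with the span trend removed and −0.25 under the stricter cell filter, calcium genes at 0.040 and YAP1/TAZ targets at −0.036 with the trend removed. Vasoactive receptors were at −0.35 without other-cell markers and −0.36 without cartilage or bone markers. TGF-beta genes were at −0.12 (stricter gate), −0.29 (other-cell markers), 0.23 (equal numbers), −0.28 (cartilage or bone) and −0.032 to 0.22 with a library left out. Fibrillar matrix was at −0.38 (stricter gate), 0.21 (stricter cell filter), 0.20 (other-cell markers), −0.995 (*Myh11* of at least 10), 0.37 (cartilage or bone) and −0.21 to 0.046. Immediate early genes were at 1.10 (equal numbers), 1.31 (*Myh11* of at least 10) and 1.03 to 1.36. Hypoxia genes were at 0.49 (stricter cell filter) and 0.36 to 0.54. Interferon genes were at −0.44 (span), 0.14 (other-cell markers), −0.45 (equal numbers), 0.060 (free RNA subtracted), −0.59 (*Myh11* of at least 10), 0.24 (cartilage or bone) and −0.48 to −0.041.

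Reversed genes were *Dcn* (0.022, looser gate), *Col1a1* (0.10) and *Col1a2* (1.98) with free RNA subtracted, *Rgs5* (−0.28, *Myh11* of at least 10), and *Dgkb* (0.048) and *Rbms3* (0.0045) with the span trend removed. *Fbn1* reversed in the stricter gate (−0.23) and with *Myh11* of at least 10 (−0.27). Without other-cell markers and without cartilage or bone markers, *Spp1* was at 0.75 and 0.74, *Col2a1* at 0.20 and 0.19, *Fn1* at 0.18 and 0.27 and *H2-D1* at 0.14 and 0.24, and *B2m* at 0.43 without the latter.

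Replicate numbers were not taken as a pairing, since same-numbered libraries did not deviate together (correlation 0.022 over 10165 genes). With the replicate block 82 genes rose and 44 fell in members and 228 and 229 in *Rgs5* barcodes. The block changed these counts by less than 1.5 times, and it was not run for the difference of effect, where the library is already the block.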
